A study of Mus musculus with 4 samples.

Results

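The genes described here were chosen by their detection scores: both arrays of the anterior lobes of the cerebellum gave a score over 0.95 and neither array of the posterior lobes did. The score of a probe is 1 minus its detection p-value, that is, the part of the negative controls that were dimmer than the probe. Of the 45281 probes on the chip, 295 met this rule (0.651%), standing for 287 of 30854 gene symbols, and 97 probes met the opposite rule. Total RNA came from dissected anterior or posterior lobes of untreated Swiss mice at postnatal day 7, with 2 samples for each lobe and 1 Illumina MouseWG-6 v2.0 array for each sample. The labels name no genetic change or agent in either group, and no animal, litter or sex, so a p-value here measures the spread between these samples, which may be technical.

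The signal of a probe is the mean brightness of its beads, quantile normalized between the 4 arrays and given as log2, and differences are anterior minus posterior. The scores of the 4 arrays chose the members, so their levels and differences between the lobes are a description and carry no test. Of the 10 granule neuron markers 8 were detected on all 4 arrays, and of the 10 Purkinje cell markers 7 were, so the material had the marks of cerebellum. The log2 difference between the 2 arrays of a lobe had an SD of 0.318 over tested probes for the anterior lobes and 0.203 for the posterior. In whole tissue, fewer cells of a type and less RNA per cell cannot be told apart.

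Many of the leading members belong to the motile cilium. A motile cilium is a beating process of the cell surface, built on a ring of microtubule doublets around a central pair. Axonemal dyneins, the motors, stand on the doublets as outer and inner arms, and are assembled in the cytoplasm by dedicated factors. Radial spokes, the central pair and the dynein regulatory complex control the beat. In the brain such cilia are carried by ependymal cells, which line the ventricles, while most neurons and astrocytes carry a single non-motile primary cilium. FOXJ1 and factors of the RFX family switch on the genes of the motile cilium, and the RFX factors bind a motif of paired half-sites known as the X-box.

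The stretches of DNA below lie before the RefSeq transcript starts of members with a role in cilia and are shown because they hold the letters GTTGCC, a half-site of the X-box, or its reverse complement, in capitals. They are from build GRCm38.p6 and each is written 5′ to 3′ on the strand of the gene. They lie at chr8:95534082-95534099 (plus strand, Ccdc113), chr12:33092876-33092893 (minus strand, Cdhr3), chr7:83794888-83794917 (minus strand, Cfap161), chr5:30281370-30281392 (plus strand, Drc1), chr19:58943375-58943404 (plus strand, Eno4) and chr8:22125217-22125246 (minus strand, Nek5).
Ccdc113: ttcagttgtctaGGCAAC
Cdhr3: ggtttcctgcctGGCAAC
Cfap161: tcttgaccaactGGCAACtGGCAACtgcct
Drc1: ctgctttcccttGGCAACggctt
Eno4: tgatctcgttgcGTTGCCtagcgacaaaag
Nek5: accaagctacagGTTGCCaactctcagacc

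The motif begins 6 bases before the start in Ccdc113 and Cdhr3, 11 in Drc1, 38 in Eno4 and 167 in Nek5, while Cfap161 holds a tandem pair of copies from 66 bases before it. Pifo, Fbxl13 and Iqcg, further members with a role in cilia, also held the motif and are not printed. Both strands of the 250 bases before each listed start were searched. Of the 176 member genes with such a window 34 held the half-site (19.3%), against 11.8% of 27025 genes in the table and 12.7% of 9428 genes with a tested probe. Among members of the motile cilium list it was 4 of 13 genes, among the other members 18.4% of 163, and among listed cilium genes that were not members 29 of 76 (38.2%). The forkhead motif GTAAACA, which does not overlap the half-site, stood in 8 of the 176 member genes (4.55%). It stood in 3.54% of all genes in the table and in 2.67% of genes with a tested probe. A match is a description of these letters, neither a binding site nor a cause.

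As a whole the members were dim and close to the detection limit. Their mean log2 signal ran from 7.02 to 7.97 in the anterior lobes, with a median of 7.17, and from 6.38 to 7.05 in the posterior lobes, with a median of 6.92. The lowest signal of a detected probe was between 7.01 and 7.06 on the 4 arrays, and the median of all tested probes was 9.27. The difference of the members ran from 0.02 to 1.16 with a median of 0.27, and the median of the 21726 tested probes, those detected on at least 2 arrays, was -0.002. On 285 members both anterior arrays were above both posterior arrays, which held for 21.5% of all tested probes, and 131 members were past a 1.2-fold change at an unadjusted p under 0.05, against 5% of the tested probes. The rule used this contrast, so nothing is read from either count.

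A posterior signal below the limit only bounds a fold change. For the bound, a posterior signal lower than that of the dimmest detected probe of its array was replaced by the latter, and the mean anterior signal was set against the mean of these. This bound was over 1 for 280 members, over 1.2 for 56 and over 1.5 for 7, with a median of 1.08 and a maximum of 1.89. Members were called clear where both anterior scores were over 0.99 and both posterior scores were 0.90 or less, and 4 probes met this, those of Cfap52 (WDR16 on the array), Uts2, Cfap161 (1700026D08RIK) and Nek5. The other 291 were near the threshold. On 229 the higher posterior score was over 0.90, and on 20 the lower anterior score was over 0.99. When clear is taken as at least 1.5-fold with no overlap between the lobes, 42 members are clear.

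**Figure D1:**
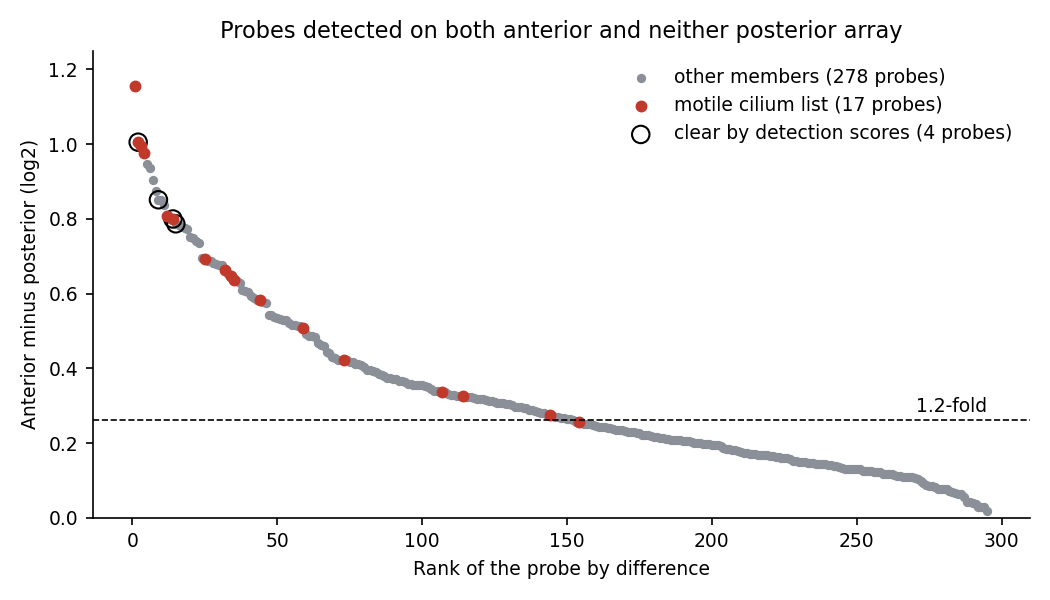
Anterior minus posterior log2 difference (vertical axis) of the 295 members, 1 point per probe, ordered by rank (horizontal axis). Red points are the 17 probes of the motile cilium list, black rings the 4 probes clear by their scores and the dashed line 1.2-fold; the curve falls from 1.16 to 0.02, and 6 of the first 15 points are red.

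The edge of the rule was crowded. The probe of Xiap (BIRC4), an inhibitor of caspases, was just inside with scores of 0.95085 and 0.96261 on the anterior and 0.90278 and 0.85791 on the posterior arrays, and that of Bace2 was just outside with 0.94979 and 0.96902 against 0.87821 and 0.83547. Bace2 nevertheless had the larger difference, 0.31 against 0.24. On the posterior side the probe of Fam20a, a pseudokinase of the secretory pathway, was inside with a highest posterior score of 0.94979 and a difference of 0.21, and the probe of the cytokine gene Il24 was outside at 0.95085 and 0.08. Of the members, 71 had a lowest anterior score within 0.005 above the limit, and 64 probes missed it by as little. A further 742 probes were detected on 1 anterior array only, and 454 on both anterior arrays and 1 posterior array.

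For replicate 2 minus replicate 1, 4 of the 295 members had an unadjusted p under 0.05 by limma in a model with lobe and replicate, against 11.7% of the tested probes, and none passed the adjusted p, against 181 of all tested probes. The 4 were COL24A1 and RASGEF1B, brighter in replicate 1, and LOC237403 and LOC100041932, brighter in replicate 2. Within the anterior lobes 193 members were brighter on the array of replicate 2, with a median of 0.06. The rule keeps both arrays of a lobe on the same side of the limit and so restricts the differences between replicates of the members, and nothing is read from the lower share.

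Among the ranked members, 6 of the first 15 probes belonged to a list of 106 motile cilium genes on the chip, and 10 did when Akap14, Cdhr3, Eno4 and Ttc29 were added. The list was written after the members had been seen. In all it held 17 member probes of 15 genes, with a median difference of 0.65 against 0.25 for the other 278 members. In none of the 17 did the lobes overlap. This is a feature of the members as ranked and is given with no test.

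Of the genes for the arms and their assembly, Dnaaf1 (LRRC50), which helps to preassemble dyneins in the cytoplasm, led all members. Its probe stood at 7.87 and 8.07 on the anterior arrays and at 6.93 and 6.70 on the posterior arrays, a difference of 1.16 and at least 1.89-fold. Dnah12 (4921531P07RIK), an inner arm heavy chain, was at 7.27 and 7.44 against 6.37 and 6.38, a difference of 0.98 and at least 1.23-fold. Both posterior signals of Dnah12 were close to each other and among the furthest below the limit, with scores of 0.707 and 0.703. Zmynd10, another assembly factor, was at 7.63 and 7.59 against 6.97 and 6.97 (difference 0.64), and Armc4, a docking factor of the outer arm, at 7.07 and 7.16 against 6.90 and 6.81 (0.26). The 4 genes of this group thus ran from the first to the 154th rank.

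Of the parts that space and regulate the arms, Drc3 (LRRC48), of the dynein regulatory complex, had member probes at 7.20 and 7.18 against 6.43 and 6.66 (difference 0.65) and at 7.27 and 7.07 against 6.61 and 6.57 (0.58). Drc1 (GM1060) was at 7.07 and 7.50 against 6.97 and 6.94 (0.33), so its difference lay mostly on anterior replicate 2. Ccdc39, which sets the repeat along the doublet, was at 7.09 and 7.23 against 6.90 and 6.75 (0.34). All were dim, and Drc3 was the furthest below the limit in the posterior lobes.

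Of the spokes and the central region, Cfap206 (1700003M02RIK) had member probes at 7.40 and 7.75 against 6.97 and 6.80 (difference 0.69) and at 7.26 and 7.37 against 6.72 and 6.59 (0.66). Ak7, an adenylate kinase of the axoneme, was at 7.03 and 7.19 against 6.67 and 6.70 (0.42). Both probes of Cfap206 thus gave nearly the same difference. Among the other axonemal genes, Cfap52, a protein inside the doublets, was at 7.55 and 7.72 against 6.70 and 6.57, a difference of 1.01 and at least 1.498-fold. Pifo (1700027A23RIK), a protein of the ciliary base, was at 7.77 and 7.74 against 7.02 and 6.49 (1.00), with 1 posterior array just below the limit. Ccdc113 was at 7.48 and 7.49 against 6.93 and 6.42 (0.81), and Cfap161 at 7.50 and 7.49 against 6.80 and 6.59 (0.80). In each of these genes the anterior arrays were closer to each other than to either posterior array. The kinesin gene Kif6 (0.27) and Dydc2 (0.51) were the remaining members of the list.

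**Figure D2:**
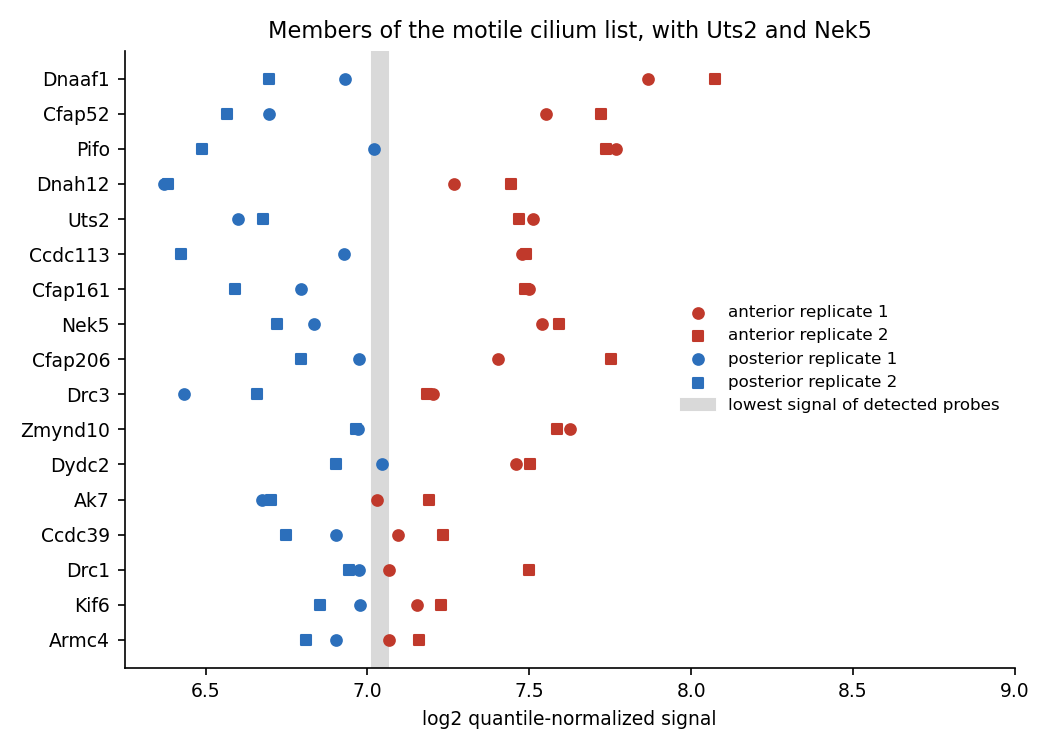
log2 quantile-normalized signal (horizontal axis) of 1 member probe per gene, the highest ranked, for the 15 genes of the motile cilium list and for Uts2 and Nek5. Red marks are anterior and blue marks posterior arrays, circles replicate 1 and squares replicate 2, and the grey band spans the lowest signals of detected probes on the 4 arrays, 7.01 to 7.06; all red marks lie at or right of the band and all blue marks at or left of it.

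Members with a role in ciliated cells but outside the list had differences in the same range. Eno4, an enolase of the sperm tail, had probes at 7.64 and 7.92 against 6.90 and 6.76 (difference 0.95) and at 7.38 and 7.55 against 6.71 and 6.67 (0.78). Cdhr3, a cadherin of ciliated epithelium, was at 7.57 and 7.77 against 6.91 and 6.57 (0.94), and Akap14, an anchor for protein kinase A in cilia, at 7.43 and 7.37 against 6.69 and 6.36 (0.88). Nek5, a kinase of the NIMA family, was at 7.54 and 7.59 against 6.84 and 6.72 (0.79). None of these overlapped between the lobes, as held for 285 of the 295 members. The other members of this kind were Ttc29 (0.80), Fbxl13 (0.68), Casc1 (0.61) and Iqcg (0.37).

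The rest of the motile cilium list was measured on probes that the rule did not choose. Outside the members 79 of its probes, for 60 genes, were tested, 68 of them detected on all 4 arrays. The anterior lobes were higher on 58 of the 79 (73.4%), against 49.4% of all tested probes, and the median difference was 0.21. Past 1.2-fold at an unadjusted p under 0.05 were 32 probes of 29 genes in the anterior direction (40.5%), against 5% of all tested probes, and 0 in the posterior direction, against 3.3%. On 45 of the 79 both anterior arrays were above both posterior arrays (57.0%, against 21.5%). Of the 11 probes detected on 3 arrays 10 were detected on both anterior arrays and so passed the filter through the lobe where they are high. Among the 68 detected on all 4 arrays 48 were higher in the anterior lobes (70.6%, against 49.5% of all such probes) and 25 passed the criterion (36.8%, against 4.54%), with a median of 0.15. After Benjamini-Hochberg adjustment over all probes tested 0 of the 79 were under 0.05 by limma, where 33 had an unadjusted p under 0.05, and the smallest adjusted p was 0.062. Of the 33, a probe of Nme7 was higher in the posterior lobes, at 10.70 and 10.64 against 10.94 and 10.87 (-0.24), short of 1.2-fold. Without 1 array the median difference of the 79 probes stayed between 0.16 and 0.28.

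Some cilium genes with signals well above the limit were among the probes past the criterion. Rsph4a (RSHL3), a head protein of the radial spoke, was at 9.46 and 9.27 on the anterior and 8.29 and 7.85 on the posterior arrays (difference 1.30, standard error 0.18, adjusted p = 0.096 by limma). Odf3b (2010001J22RIK) was at 9.69 and 9.77 against 8.65 and 8.38 (1.22, standard error 0.14, adjusted p = 0.062 by limma). The dynein light chain gene Dynlrb2 was at 10.27 and 10.24 against 9.33 and 8.69 (1.24, standard error 0.21, adjusted p = 0.16 by limma). In these genes the lower posterior signal was that of replicate 2. Cfap65 (CCDC108) had the largest difference of the list, 1.46, and was detected on 3 arrays. Spag6 of the central pair (0.95) and Rsph1 of the spokes (0.90) passed the 1.2-fold criterion too. Other bright probes of the list lay near 0 or below it, such as those of Dnah11, an outer arm heavy chain, at 10.91 and 10.91 against 11.00 and 11.04 (-0.11), and of Rsph9 of the spokes (-0.12 and -0.16). A dim probe of Dnah11, detected on 1 array and so not tested, differed by 0.70. All of these probes were chosen after their values were seen.

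By role and outside the members, 7 of 8 tested probes for dynein arms passed the criterion, and 3 of 8 for assembly and docking. It was 2 of 5 for the ruler and regulatory complex and 8 of 17 for the spokes and central pair. For other axonemal proteins it was 9 of 25, and for other genes of ciliated cells 3 of 11. The share of all tested probes was 5%. Of the 32 probes past the criterion 7 were detected on 3 arrays, with both anterior arrays among them. On probes detected on all 4 arrays the median difference for dynein arms was 0.44, in place of 0.58. Of the 5 probes of regulators 0 passed in either direction, and 0 had an unadjusted p under 0.05. Foxj1 was at 7.24 and 7.34 against 7.43 and 7.33 (difference -0.09), and Rfx2 at 10.36 and 10.28 against 10.34 and 10.29 (0.01), and Rfx3 gave 0.08. The signals of Foxj1 overlapped between the lobes and its probe was dim. Tests of these regulators against the structural genes were not made.

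**Figure D3:**
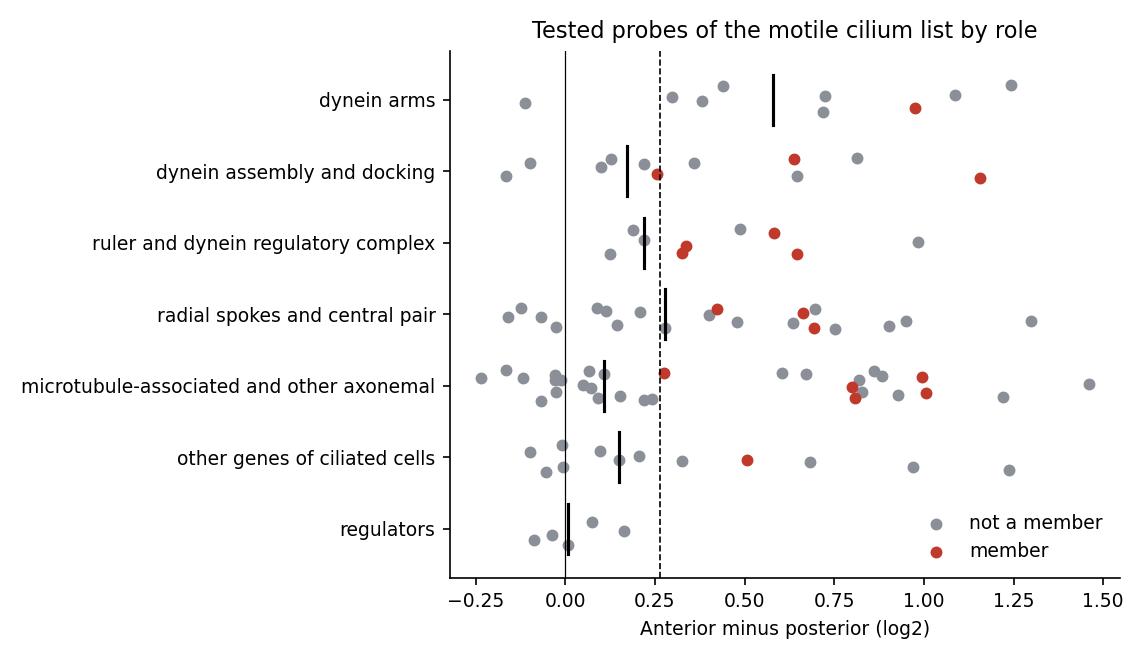
Anterior minus posterior log2 difference (horizontal axis) of the tested probes of the motile cilium list, 1 point per probe, in rows by role with a vertical scatter that carries no value. Red points are members, grey points are not, the black bar is the median of the grey points and the dashed line 1.2-fold; the bar stands at 0.58 for dynein arms and at 0.01 for regulators. On probes detected on all 4 arrays the median for dynein arms was 0.44.

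Markers of other cell types differed between the same arrays, and their part in the result was not tested. Ependyma and choroid plexus adjoin the ventricle under the cerebellum. Of the choroid plexus list, 8 tested probes had a summed signal of 2261 and 12566 on the anterior and 6928 and 8878 on the posterior arrays, and 1 of the 8 had no overlap with the anterior lobes higher. Except on anterior replicate 1, these sums rested mostly on Otx2 and Ttr. Otx2 was at 8.32 and 8.16 against 12.31 and 11.82, and without both the other 6 probes summed to 1393 and 1945 against 1535 and 1586. Of these Clic6, a chloride channel protein, passed the criterion in the anterior direction, at 8.85 and 9.55 against 8.08 and 8.54 (0.89). A probe of Prlr passed it in the posterior direction (-0.52). Ttr, the main secreted product of the plexus, was at 9.10 and 13.34 on the anterior and 8.37 and 11.85 on the posterior arrays. It was high in replicate 2 of both lobes. Of the 14 probes of meningeal fibroblasts 10 passed the criterion in the posterior direction, and their summed signal was 17705 and 20039 on the anterior and 26665 and 31275 on the posterior arrays. Of the 32 myelin probes outside the members 26 passed it in the anterior direction, and the sum over all 33 was 140361 and 143250 against 93127 and 88094.

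Outside the cilium, Uts2, the gene for the vasoactive peptide urotensin 2, had a clear probe at 7.51 and 7.47 on the anterior and 6.60 and 6.68 on the posterior arrays (difference 0.85) and a dimmer member probe at 7.11 and 7.09 against 6.59 and 6.54 (0.54). Rsad2, an antiviral gene induced by interferon, was at 7.12 and 8.12 against 6.96 and 6.71, so its difference of 0.78 lay mostly on anterior replicate 2. Myo7a, the myosin of hair cell bundles, was at 7.49 and 7.94 against 6.98 and 6.90 (0.78). Crygn, a crystallin, had probes with differences of 0.73 and 0.69. Ryr2, a calcium release channel, stood at 7.59 and 7.85 against 7.05 and 7.00 (0.70), with both posterior signals just below the limit. The 5 members brightest in the anterior lobes were Dnaaf1, Eno4, Lrrc74b, Pifo and Ryr2, with means of 7.97, 7.78, 7.77, 7.75 and 7.72.

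From the myelin list 1 gene was a member, Ugt8a, the enzyme that makes galactosylceramide of myelin, at 7.45 and 7.30 against 6.79 and 6.80 (difference 0.57). A bright probe of the same gene, not a member, was at 12.94 and 13.06 against 12.19 and 12.10, a difference of 0.86 (standard error 0.08, adjusted p = 0.035 by limma). So the gene itself was strongly detected in both lobes. Bmp4, a growth factor gene on the list for oligodendrocyte precursors, had the same split: its member probe differed by 0.51, and another at 10.33 and 10.37 against 9.98 and 9.70 differed by 0.52 (adjusted p = 0.29 by limma).

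The neuronal lists gave 1 of 5 tested monoamine and cholinergic probes (20%) and 3 of 19 tested neuropeptide probes (15.8%) as members, against 1.36% of all tested probes, and all 4 were dim. A member counts as tested through its anterior arrays alone, so nothing is read from these shares. Slc6a2, the noradrenaline transporter, was at 7.25 and 7.10 against 6.89 and 6.62 (difference 0.42), and the other 4 tested probes of the monoamine and cholinergic list included 3 past the criterion in the anterior direction, among them both of Ddc, the decarboxylase that makes dopamine and serotonin, at 0.59 and 0.47. Of the 30 neuropeptide genes on the chip Agrp (0.30), Cartpt (0.14) and Calca (0.13) were members, each within 0.15 of the limit on both anterior arrays. Among ion channels the members were Kcnh3 (0.52), the NMDA receptor subunit Grin3b (0.24) and the muscle nicotinic subunit Chrnb1 (0.19). Of the other receptors Lpar3 (EDG7), for lysophosphatidic acid, was at 0.39 and the serotonin receptor Htr5b at 0.13. No granule neuron, Purkinje cell, astroglial, microglial, endothelial, blood, meningeal or choroid plexus gene of the lists was a member.

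Of the extracellular matrix genes, Col24a1, a fibrillar collagen, had member probes at 7.43 and 7.11 against 6.78 and 6.67 (difference 0.54) and at 7.59 and 7.19 against 6.99 and 6.86 (0.46), higher on anterior replicate 1. Col27a1 was at 7.41 and 7.35 against 6.88 and 6.86 (0.51), and the proteases Adamts20 and Adamts6 differed by 0.21 and 0.18. In Col27a1 the 2 arrays of each lobe were closer together than in Col24a1. Members made up 5 of the 107 tested extracellular matrix probes (4.67%), 2 of them of Col24a1, against 1.36% of all tested probes. Here too members count as tested through their anterior arrays alone, so nothing is read from this share. Of the other 102 probes 4 passed the criterion in the anterior direction and 19 in the posterior, with a median difference of -0.05. The stems also gave Krt4 (0.17), the solute carrier gene Slc39a9 (0.12), Cd164l2, Foxred1 (0.33), 6 zinc finger genes, of which Zfp488 (0.27), Zfp366 (0.21) and Zfp36l2 (0.12) are examples, and the odorant receptors Olfr419 (0.14) and Olfr100 (0.07), 2 of 61 tested chemosensory probes. For Olfr100, Krt4 and Adamts6 no bound on the fold is given, since the anterior mean was not above the limit of the posterior arrays. Of the 295 probes 93 carried provisional names (31.5%), against 25.4% of tested probes, and 54 of the 287 symbols had no match in the RefSeq table.

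A gene with several probes allows a comparison within the gene. By array symbol 8 genes had a pair of member probes: Eno4, Uts2, Crygn, Cfap206, Drc3, Ptbp1, Col24a1 and Elmo1. Ptbp1, a splicing regulator, had differences of 0.60 and 0.34 on its members, and brighter probes at 0.55, 0.19, 0.18 and 0.02. Elmo1, an activator of RAC signalling, had 0.38 and 0.33 on its members, and its brightest probe, at 14.05 and 13.91 against 13.87 and 13.96, differed by 0.07 with overlap between the lobes. In Ptbp1 and Elmo1 detection in the anterior lobes alone was thus a property of some probes and not of the others.

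Of the 287 member symbols 156 had another probe on the chip, 322 probes in all, of which 191 were tested and 178 detected on all 4 arrays. On 127 of the 191 the anterior lobes were higher (66.5%, against 49.4% of all tested probes), with a median difference of 0.07. Past the criterion were 29 in the anterior direction (15.2%, against 5%) and 2 in the posterior direction (against 3.3%), of Nrxn2 (-0.58) and Adamts6 (-0.34). Most of the positive values came from outside the cilium list, where 124 of 186 probes were higher in the anterior lobes, with a median of 0.07. Those not detected on all 4 arrays could pass the filter through the anterior arrays, and the shares include them. All these probes were measured on the same arrays as the members, and no test was made over them.

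Some genes had another probe with a high value in the anterior direction. Cdhr3 had another probe at 8.81 and 8.80 against 7.69 and 7.50 (difference 1.21, standard error 0.12, adjusted p = 0.053 by limma), Armc3 one at 1.05, Drc3 one at 9.15 and 9.29 against 8.29 and 8.19 (0.98, adjusted p = 0.076 by limma) and Dnah12 one at 0.72. These genes were detected in the posterior lobes as well, at a lower level. In contrast, the other probes of Dnaaf1 were at 10.33 and 10.31 against 10.47 and 10.37 (-0.10) and at 7.16 and 7.26 against 7.37 and 7.38 (-0.17), on the other side of 0 from the member probe that ranked first. Which of the 3 probes of Dnaaf1 reports its transcripts cannot be told from these files. The lowest value was a probe of the chromatin gene Cbx3, at 9.85 and 7.52 against 11.94 and 9.50 (-2.04), low in replicate 2 of both lobes.

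**Figure D4:**
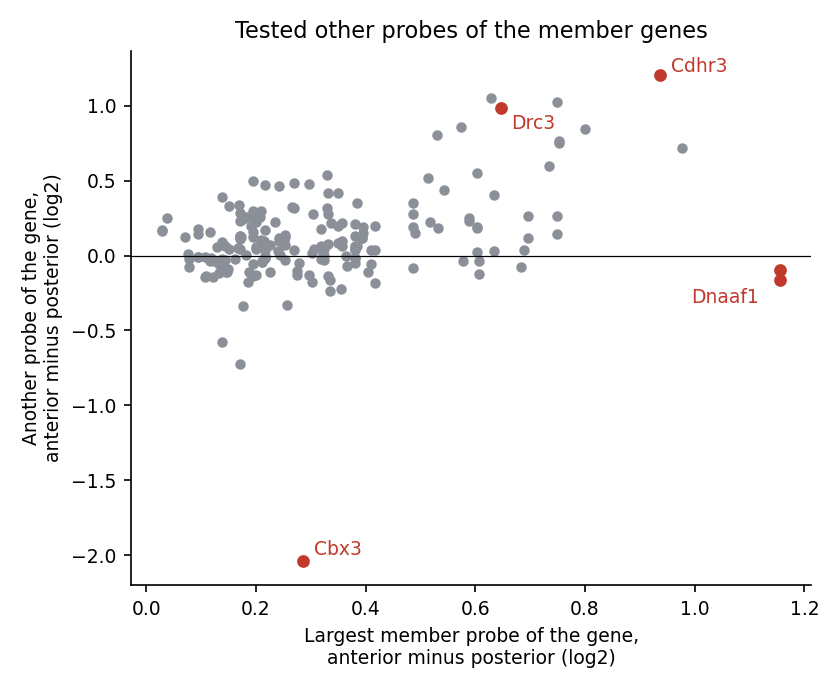
Difference of another tested probe of a member gene (vertical axis) against the largest difference among the member probes of that gene (horizontal axis), both anterior minus posterior in log2, 1 point per other probe (191 in all). Red points are the probes of Dnaaf1, Drc3, Cdhr3 and Cbx3; Cdhr3 reaches 1.21, the 2 points of Dnaaf1 lie below 0, and Cbx3 lies at -2.04.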

How the data were processed

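Total RNA of 2 anterior and 2 posterior lobe samples was labelled and hybridized to 4 arrays. The authors deposited, from GenomeStudio with no normalization, the mean bead intensity of 45281 probes, the SD of the beads, the number of beads (a count, with a median of 40 to 42 per probe on each array) and a detection score, which is the fraction of negative controls dimmer than the probe. A further 16 columns were not used. Arrays were assigned through the sample numbers in the labels.

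The deposited intensity was quantile normalized, floored at 1, as the study's methods state, and log2 transformed. The 21726 probes with a deposited score over 0.95 on at least 2 arrays were fitted by lobe with limma 3.58.1 in R 4.3.3 (lmFit, and eBayes with an intensity trend), with Benjamini-Hochberg adjustment over all of them. The criterion, over 1.2-fold with an unadjusted p under 0.05, is that of the study. The fit was checked on simulated data. The number of arrays limits the precision, and 2 arrays against 2 have no exact test that could reach 0.05.

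The members, lists and rules were chosen with earlier results of these data known, and the motile cilium list after the members had been seen. Named by rule were the clear members with a full name, genes with several member probes, members in a list or symbol stem, probes at the edge of the rule and the 5 brightest. All other members and cilium probes named were chosen after their values were seen. Array symbols were updated through the RefSeq table of GRCm38.p6, by symbol or unique synonym, for 81.2% of the member symbols, and array names are given in capitals. Promoter sequences are RefSeq's of the same build, of the listed transcript starts, and a gene counts if any of its windows matched. Alternatives were other normalizations, cutoffs, floors and tests, a replicate block and leaving out each array.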

Additional observations from a re-analysis of the deposited data

How the results depend on the processing

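Cutoffs of 0.99 and 0.90 on the score gave 390 and 297 probes in place of 295, and leaving out an array 488 to 778, as fewer arrays then need to pass. Clear members were 4 by the scores, 20 with only the anterior scores over 0.99, and 42 by size and lack of overlap. The median difference of the members, 0.27, was 0.46 after neqc and between 0.20 and 0.31 in the other settings, and 281 members were higher in the anterior lobes under every normalization tried. The 285 members with no overlap between the lobes became 197 without normalization, 225 after the 75th percentile shift and 282 after cyclic loess. After neqc there were 285. The 131 members past the criterion became 77 without normalization, 66 by the methods' t-test, 42 at 1.5-fold, 20 with the stricter detection filter, which few members pass, and 82 to 150 without 1 array. For all tested probes 1802 became 741 by that t-test, 389 at 1.5-fold and 769 to 4833 without 1 array. Members with a replicate difference, 4, were 0 without normalization and 7 after the 75th percentile shift. The remaining settings, chosen after the data had been seen, concern cilium probes outside the members. The 32 past the criterion became 14 by the t-test, and lay between 22, without posterior replicate 2, and 48, with no filter, elsewhere. Their 0 past the adjusted p became 11 without normalization, 4 with no filter, and between 0 and 27 without 1 array (27 without anterior replicate 1 and 13 without anterior replicate 2). Their median, 0.21, stayed between 0.11 and 0.28. With the replicate number as a block, 151 members, 2818 tested probes and 34 cilium probes passed the criterion, and 25 of the cilium probes the adjusted p. Over tested probes the differences between the replicates of the 2 lobes correlated at 0.46, over members at -0.04, but 2 pairs do not establish that the numbers pair the samples. For the 25 leading members, 174 of 200 recomputed differences moved by less than the spread between replicates, 26 by more, and 0 changed direction. The cause of these changes was not tested. Signal near background limits the members: every anterior mean was within 1 log2 unit of the detection limit.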

Other observations

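Genes induced by interferon, a list written after the members had been seen, were high on the array of anterior replicate 2. Ifit3 was at 9.60 there against 7.94 to 8.45 on the other arrays, Usp18 at 8.50 against 7.48 to 7.70, Igtp at 8.21 against 7.58 to 7.64 and Mx2 at 8.13 against 7.54 to 7.80. The member Rsad2 had the same pattern, with 8.12 against 6.71 to 7.12. Bst2 and Gbp2 of the same list did not stand out on that array among the 4. With 1 array on the high side, no test between the lobes bears on it.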
